A study of Chrysanthemum x morifolium with 6 samples.

Results

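This report covers the named bHLH factors of chrysanthemum roots: assembled sequence clusters that the authors placed in the basic helix-loop-helix (bHLH) family and whose best Swiss-Prot match is a flowering plant protein with a name of its own, such as PIF, ICE, UNE or FIT. A cluster was taken when the deposited family was bHLH, the match came from a flowering plant, and the protein name held neither bHLH with a number nor MYC. That rule gave 136 clusters under 27 protein names, out of 426 bHLH clusters, 10744 clusters in the table of transcriptional regulators and 469059 clusters in all. The clusters are 243 to 2357 bases long with a median of 1011.5, the Swiss-Prot match of 132 is an Arabidopsis protein, and the deposited Pfam annotation gives a helix-loop-helix domain to 133. The name says which known protein a cluster is most similar to, and the 136 clusters share 82 best matches in the NR (non-redundant) protein database, so several clusters can be copies, alleles or pieces of 1 gene.

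The plants were 1-month-old seedlings of the chrysanthemum cultivar jinba, raised for 30 days in a greenhouse with 16 h of light a day. The salt group got 100 mM salt water and the control group purified water. Roots were taken 24 h after treatment and their total RNA was sequenced. The labels call the 3 libraries of each group biological replicates and name the salt only as salt water, and both groups share the cultivar, age and growth conditions.

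Proteins of the bHLH family bind DNA as pairs through a basic stretch next to 2 helices joined by a loop, and members without the basic stretch hold their partners off DNA. In Arabidopsis, the best studied plant, the phytochrome-interacting factors (PIFs) act in light responses, ICE1 and SCREAM2 in cold tolerance and stomata, BIM, BEE and PRE proteins in brassinosteroid-driven growth, and FIT, ORG2, ORG3 and ILR3 in the iron supply of the root. In roots, FIT switches on iron uptake as a partner of ORG2 or ORG3, while ILR3 acts above them in iron sensing.

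Recovered depth was 12.77 to 16.11 M fragments in the salt libraries and 15.92 to 20.13 M fragments in the control libraries. Replicates correlated at 0.879 to 0.911 in salt and at 0.943 to 0.947 in controls (Pearson's r of log CPM over tested clusters), and libraries of different groups at 0.637 to 0.682. Clusters matched to flowering plants held 83.8% ± 2.66 of the regulator table's counts in salt roots and 91.4% ± 0.069 in control roots (SD, n = 3 each), and clusters matched to other organisms held 10.2% ± 2.09 and 4.01% ± 0.017. Root markers summed to 90.0 CPM in salt roots and 123 CPM in control roots over 57 clusters, against 26.1 CPM and 36.7 CPM for 21 clusters of shoot, leaf and flower markers. SHORT-ROOT (26.0 CPM in salt, 50.9 CPM in control) and SCARECROW (12.98 CPM and 22.1 CPM) were present and lower in salt roots. Of 29 tested root marker clusters, 2 rose (6.90%) and 9 fell (31.0%). The shares were 23.8% and 29.6% of all tested clusters, and 12.2% and 35.9% of those with a flowering plant match. PLT2 (7.53 CPM in salt, 2.98 CPM in control) and AIL6 (26.3 CPM and 17.3 CPM) were higher, each with 1 cluster called. AIL7 had a higher mean in salt roots (2.70 CPM and 1.11 CPM) and AIL5 a lower one (4.02 CPM and 5.52 CPM). No cluster of AIL7 or AIL5 was called. Of 11 tested clusters of shoot, leaf and flower markers, 3 rose (27.3%) and 4 fell (36.4%). The leaf marker Transcription activator GLK1 had 12.97 CPM in salt roots and 22.7 CPM in control roots, levels near those of SCARECROW. Of its 2 tested clusters, 1 rose and 1 fell. Of 3 tested clusters of Probable transcription factor GLK1, 2 rose and 1 fell. Transcription activator GLK2, too low to test, had a higher mean in salt roots (0.974 CPM and 0.139 CPM). No cluster was matched to LONESOME HIGHWAY, SPEECHLESS or FAMA. CPM values are counts scaled to the depth and composition of each library.

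Of the 136 clusters, 67 had enough counts to be tested and 69 did not. Among the 67, 13 were higher in salt roots (19.4%) and 30 were lower (44.8%), where edgeR called 23.8% of all 5284 tested clusters higher and 29.6% lower (53.3% in either direction). The share called higher was near the background and the share called lower was above it, a difference that was not tested. Among the 3829 tested clusters with a flowering plant match, 12.2% were higher and 35.9% lower. The median log2 fold change was −0.69 over the 67, −0.38 over all tested clusters and −0.63 over the flowering plant matches. A change of at least 2-fold was reached by 9 of the higher and 23 of the lower clusters, against 20.5% and 22.6% of all tested clusters. The libraries of the 2 groups did not overlap for 47 of the 67 (70.1%, against 67.2% of all tested clusters). The 69 untested clusters averaged at most 0.684 CPM and held 1.34% to 2.79% of the counts of the 136, and 3 were at 0 in every library. RNA came from whole roots, so fewer cells of a type and less RNA per cell cannot be told apart.

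**Figure D1:**
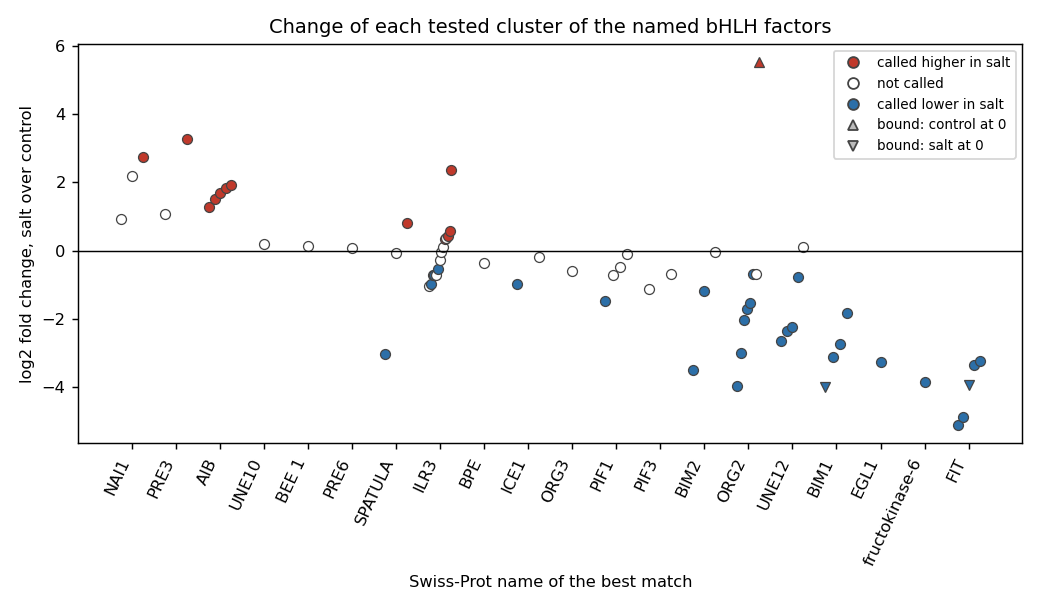
Log2 fold change (salt over control) of the 67 tested clusters, grouped by Swiss-Prot name. Each point is a cluster, red where called higher in salt, blue where called lower and white where not called, and triangles are lower bounds on the size of the change for 3 clusters at 0 in 1 group. All AIB points lie above 0, and all FIT, BIM1 and EGL1 points lie below it.

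Because reads can be split between near-identical clusters, counts were also summed per protein name. Of 20 names with enough counts, 4 were higher in salt roots (AIB, NAI1, PRE3 and SPATULA) and 11 were lower (55%, with fructokinase-6 among them), while 5 were not called. Over all 1047 tested names, 17.4% were higher and 60.0% lower, so the share of bHLH names in either direction was near the background. The summed level of all 136 clusters was a mean of 651 ± 38.9 CPM in salt roots and 713 ± 27.5 CPM in control roots (SD, n = 3 each). An exact permutation test over libraries gave a two-sided p of 0.2, where 3 against 3 can reach 0.1 at the lowest. The groups overlapped under this scaling, with a log2 ratio of −0.13. With no composition factor salt roots were lower (626 against 741 CPM, permutation p = 0.1). Salt roots were higher with DESeq2 size factors (701 against 629 CPM) and scaling on flowering plant matches (772 against 601 CPM, log2 ratio 0.36). The permutation p was 0.1 in both, so the separation and direction of the sum depended on the scaling. The plot of summed levels by library shows the names side by side.

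**Figure D2:**
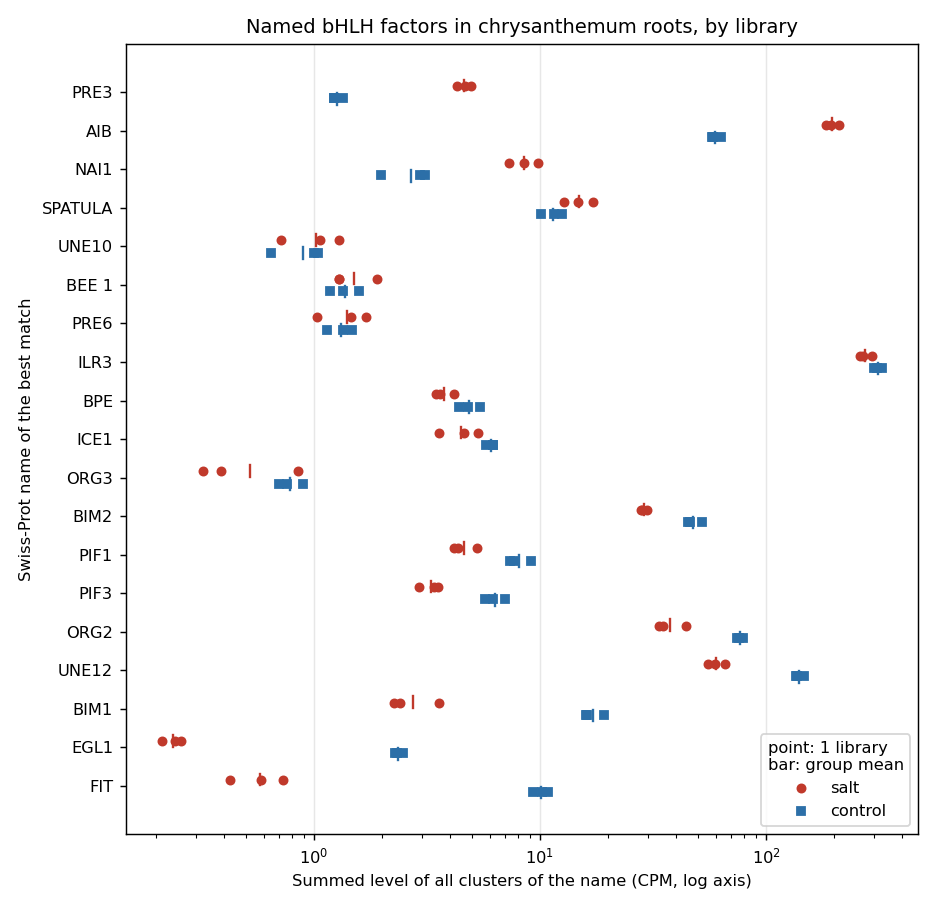
Summed level of each tested bHLH name in every library (CPM, log axis), salt as red circles above control as blue squares, with bars at the group means. AIB, PRE3 and NAI1 lie higher in all 3 salt libraries, and FIT, EGL1, BIM1, UNE12 and ORG2 lie lower in all 3.

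In CPM, AIB gained more in salt roots than any other of the names. AIB (ABA-INDUCIBLE bHLH-TYPE) is induced by the stress hormone abscisic acid and holds back jasmonate responses in Arabidopsis. Its 5 clusters together had 211, 194 and 185 CPM in salt roots, against 57.6, 63.2 and 58.2 CPM in control roots. Salt libraries were all above control libraries, 3.29-fold higher (log2 fold change 1.72, SE 0.07, edgeR adjusted p = 1.4e-11). Each of the 5 clusters was tested and rose, with log2 fold changes from 1.27 to 1.93. Cluster-71316.124237, the most abundant, had 65.3, 63.3 and 64.5 CPM in salt roots, against 21.5, 22.96 and 22.8 CPM in control roots (log2 fold change 1.52, SE 0.07, edgeR adjusted p = 5.7e-05). Cluster-71316.111803 had 66.9, 57.4 and 51.9 CPM in salt roots, against 15.98, 15.6 and 14.5 CPM in control roots (log2 fold change 1.93, SE 0.11, edgeR adjusted p = 9.6e-05). Cluster-71316.139778 had 51.4, 49.6 and 46.4 CPM in salt roots, against 11.6, 15.7 and 14.03 CPM in control roots (log2 fold change 1.83, SE 0.12, edgeR adjusted p = 1.4e-04). In all of these the lowest salt library was over 2-fold above the highest control library. Per length, the 5 clusters summed to 277 ± 17.7 FPKM in salt roots and 96.98 ± 2.29 FPKM in control roots (SD, n = 3 each), where FPKM scales fragments by cluster length and library depth. Of all counts of the 136 clusters, AIB held 30.2% ± 0.483 in salt roots and 8.37% ± 0.126 in control roots. The best NR matches of 4 AIB clusters are lettuce proteins named MYC2 and that of Cluster-71316.124237 is a strawberry protein named bHLH13-like, so the Swiss-Prot name is not the only one the deposited annotation gives.

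NAI1 is needed in Arabidopsis for ER bodies, stores of defence enzymes in the seedling and root. Its 7 clusters summed to 7.29, 8.48 and 9.79 CPM in salt roots, against 3.11, 1.99 and 2.93 CPM in control roots, with no overlap between groups (log2 fold change 1.68, SE 0.20, edgeR adjusted p = 1.0e-06). Of 3 tested clusters 1 was called higher. Cluster-71316.62508 had 2.05, 3.04 and 1.46 CPM in salt roots, against 0, 0.596 and 0.352 CPM in control roots (log2 fold change 2.74, SE 0.91, edgeR adjusted p = 0.042), but leaving out any library other than control replicate 1 moved the adjusted p to between 0.053 and 0.14. Cluster-71316.169919, the most abundant, had 0.849, 3.11 and 6.23 CPM in salt roots, against 0, 0.696 and 1.53 CPM in control roots and was not called (log2 fold change 2.18, SE 1.16, edgeR adjusted p = 0.16). Its groups overlapped at salt replicate 1, while the sum over the name was called without any 1 of the 6 libraries.

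FIT, the root regulator of iron uptake, showed the largest fall on the log2 scale of any of the tested names. Its 8 clusters summed to 0.425, 0.583 and 0.728 CPM in salt roots, against 10.2, 10.8 and 9.27 CPM in control roots, 17.4-fold lower in salt roots (log2 fold change −4.12, SE 0.22, edgeR adjusted p = 1.3e-10). All 5 tested clusters fell. Cluster-71316.42838 had 0.142, 0.194 and 0.566 CPM in salt roots, against 3.17, 3.63 and 2.58 CPM in control roots (log2 fold change −3.38, SE 0.54, edgeR adjusted p = 0.0026). All 3 salt libraries there lay below all 3 control libraries. Cluster-71316.297540 was at 0 in all 3 salt libraries and had 1.41, 0.994 and 0.939 CPM in control roots, which makes it at least 15.5-fold lower against a floor of 3 counts over the salt libraries (edgeR adjusted p = 0.0028). Cluster-71316.275727 and Cluster-71316.283912 each had 2 counts over the 3 salt libraries. In control roots the first had 2.06, 1.69 and 2.00 CPM and the second 1.41, 2.14 and 1.41 CPM. The control over salt ratio was 39.9 (10.8 to 334) for the first and 35.2 (9.47 to 295) for the second (95% exact intervals, counting error only). Fold sizes of these low clusters are therefore known within wide limits, although the groups did not overlap for any of the 5.

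**Figure D3:**
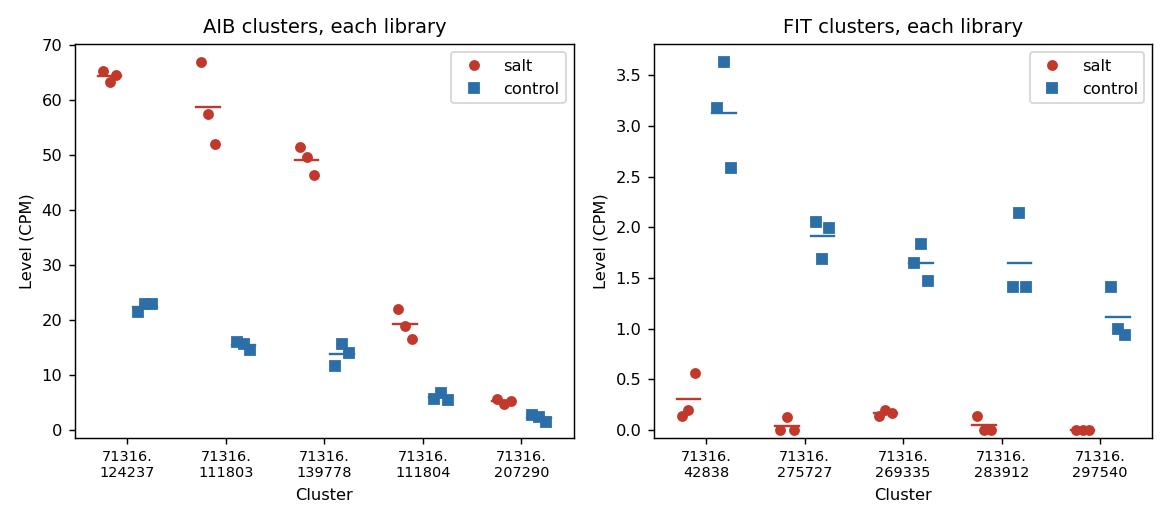
Level in each library (CPM) of the 5 AIB clusters, left, and the 5 tested FIT clusters, right, with salt (red circles) left of control (blue squares) and bars at group means. Salt libraries lie above control libraries for every AIB cluster and below them for every FIT cluster.

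ORG2, an iron-deficiency factor that pairs with FIT in Arabidopsis, was matched by 21 clusters. They summed to 44.2, 34.9 and 33.6 CPM in salt roots, against 79.2, 76.1 and 74.7 CPM in control roots (log2 fold change −1.03, SE 0.09, edgeR adjusted p = 5.1e-08). Salt libraries were all below control libraries. Of 8 tested clusters, 6 fell, 1 rose and 1 was not called. The most abundant, Cluster-71316.164287, had 27.4, 20.7 and 20.5 CPM in salt roots, against 38.2, 36.6 and 36.7 CPM in control roots (log2 fold change −0.70, SE 0.13, edgeR adjusted p = 0.0044), a call that scaling on flowering plant matches ended (adjusted p = 0.15). Cluster-58843.0 had 2 counts over the salt libraries and a control over salt ratio of 18.2 (4.76 to 155), and was called lower (edgeR adjusted p = 0.011), which became 0.059 without control replicate 3. Cluster-71316.104209 went the other way: it was at 0 in all control libraries and had 4.46, 2.33 and 0.728 CPM in salt roots, at least 46.5-fold higher against a floor of 3 counts over the controls (edgeR adjusted p = 0.007). Within the salt group that cluster was highest in replicate 1 and lowest in replicate 3. Cluster-71316.127407, which shares its NR match and is named after its values were seen, had 0.920, 3.56 and 3.72 CPM in salt roots, against 11.3, 12.03 and 10.8 CPM in control roots. Summed with that cluster and Cluster-71316.164287, all of 1 NR match, the set was lower in salt roots at 28.1 ± 4.14 CPM, against 48.5 ± 0.967 CPM in control roots (SD, n = 3 each; log2 fold change −0.79, edgeR adjusted p = 1.6e-04). ORG3, a close relative of ORG2, had 1 cluster at 0.849, 0.388 and 0.324 CPM in salt roots, against 0.764, 0.894 and 0.704 CPM in control roots, and was not called (log2 fold change −0.59, SE 0.48, edgeR adjusted p = 0.27).

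ILR3, which acts in iron homeostasis and was named for resistance to an auxin conjugate, was the most abundant name. Its 17 clusters summed to 557 ± 35.00 FPKM in salt roots and 694 ± 18.8 FPKM in control roots (SD, n = 3 each), and to 293, 269 and 259.7 CPM in salt roots, against 301, 327 and 308 CPM in control roots. The 2 groups did not overlap and differed (log2 fold change −0.19, SE 0.07, edgeR adjusted p = 0.02), but without control replicate 2 the adjusted p was 0.073, and with scaling on flowering plant matches the log2 fold change was 0.31 (adjusted p = 1.6e-05), so its direction depends on the scaling. Of 14 tested clusters, 4 rose and 4 fell, beside 23.8% and 29.6% of all tested clusters and 12.2% and 35.9% of those with a flowering plant match. Cluster-71316.155334, the most abundant, had 59.4, 46.1 and 40.2 CPM in salt roots, against 76.7, 84.3 and 78.5 CPM in control roots (log2 fold change −0.72, SE 0.14, edgeR adjusted p = 0.0064), a call that scaling on flowering plant matches ended (adjusted p = 0.16). Cluster-71316.124649 had 38.5, 59.1 and 33.9 CPM in salt roots, against 10.8, 9.14 and 5.34 CPM in control roots (log2 fold change 2.38, SE 0.32, edgeR adjusted p = 0.0014). Both were free of overlap, in opposite directions.

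Summing ILR3 clusters with the same NR match, a step chosen after the values were seen, separated them. The 5 clusters matched to a grape ILR3-like protein had 103 ± 11.4 CPM in salt roots and 176 ± 9.21 CPM in control roots (SD, n = 3 each; log2 fold change −0.78, edgeR adjusted p = 5.0e-05). The 7 clusters matched to the chrysanthemum protein bHLH1 had 59.5 ± 2.42 CPM in salt roots and 55.4 ± 2.24 CPM in control roots (SD, n = 3 each; log2 fold change 0.10, edgeR adjusted p = 0.22). The pair matched to a sacred lotus ILR3-like protein had 61.9 ± 2.50 CPM in salt roots and 45.3 ± 1.96 CPM in control roots (SD, n = 3 each; log2 fold change 0.45, edgeR adjusted p = 4.4e-04). The 1 cluster matched to a peach protein, Cluster-71316.147286, had 40.2 ± 5.79 CPM in salt roots and 27.1 ± 2.39 CPM in control roots (log2 fold change 0.57, edgeR adjusted p = 0.0023). So the grape-matched set was lower in salt roots and the lotus- and peach-matched ones higher. The chrysanthemum-, castor bean- and citrus-matched ones were not called. Sums per NR match were tested under the reported scaling only. Within the lotus-matched pair, Cluster-71316.159246 had 25.3, 0 and 28.96 CPM in salt roots while its partner Cluster-71316.124649 was highest in the salt library where it was 0, so the split between the partners varied more than their sum. The plot of stacked levels shows this for 3 sets of clusters.

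**Figure D4:**
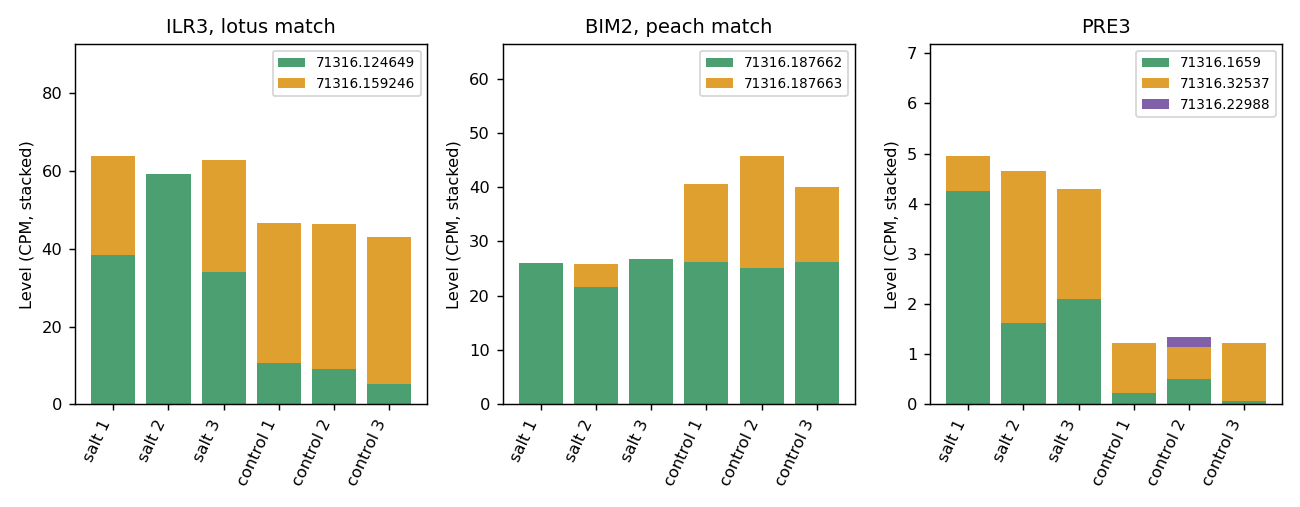
Level (CPM) of clusters that share an NR match, stacked per library, with salt libraries left of control libraries, for the lotus-matched ILR3 pair, the peach-matched BIM2 pair and 3 PRE3 clusters. The split within a bar varies between libraries of 1 group, while the bar heights stay close within a group.

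Summed in this way over all named bHLH factors, 49 of 82 NR sets were tested, 9 were higher (18.4%) and 24 lower (49.0%), against 29.2% and 39.9% of 3601 sets over all regulators.

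UNE12, named for a mutant whose embryo sacs stay unfertilized, was second to ILR3 among control levels per length. Its 8 clusters summed to 52.4 ± 4.80 FPKM in salt roots and 129.6 ± 2.45 FPKM in control roots (SD, n = 3 each). They had 65.8, 55.5 and 59.3 CPM in salt roots, against 137, 147 and 135 CPM in control roots, 2.32-fold lower in salt roots (log2 fold change −1.21, SE 0.08, edgeR adjusted p = 5.9e-10). Of 5 tested clusters, 4 fell and 1 was not called. Cluster-71316.174538, the most abundant, had 34.97, 35.1 and 41.7 CPM in salt roots, against 62.7, 66.05 and 64.3 CPM in control roots (log2 fold change −0.79, SE 0.09, edgeR adjusted p = 7.8e-04). Cluster-71316.191657 had 12.1, 11.1 and 10.03 CPM in salt roots, against 55.1, 59.7 and 55.5 CPM in control roots (log2 fold change −2.35, SE 0.10, edgeR adjusted p = 4.7e-05). Salt and control libraries did not overlap at either cluster. As a share of the counts of all 136 clusters, UNE12 held 9.24% ± 0.432 in salt roots and 19.6% ± 0.147 in control roots.

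Factors of brassinosteroid response and growth covered 28 clusters under 8 names, of which 12 clusters were tested, 1 rose (8.33%) and 6 fell (50%). The shares were 23.8% and 29.6% of all tested clusters, and 12.2% and 35.9% of those with a flowering plant match. BIM1, a partner of the brassinosteroid factor BES1, had 11 clusters that summed to 2.41, 3.56 and 2.26 CPM in salt roots, against 16.2, 19.2 and 15.9 CPM in control roots (log2 fold change −2.62, SE 0.16, edgeR adjusted p = 5.9e-10). All 4 tested BIM1 clusters fell. Cluster-71316.185326, the most abundant, had 1.13, 1.04 and 0.566 CPM in salt roots, against 6.52, 9.79 and 8.10 CPM in control roots (log2 fold change −3.14, SE 0.32, edgeR adjusted p = 5.8e-04). Cluster-71316.188869 was at 0 in all 3 salt libraries and had 0.823, 1.34 and 1.29 CPM in control roots, at least 16.3-fold lower against the floor of 3 counts over the group (edgeR adjusted p = 0.0029). The sum over BIM1 was below its control level in all 3 salt libraries.

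BIM2, a second partner of BES1, had 4 clusters that summed to 28.2, 28.1 and 29.8 CPM in salt roots, against 46.00, 52.2 and 45.02 CPM in control roots (log2 fold change −0.74, SE 0.08, edgeR adjusted p = 7.1e-07). Of 3 tested clusters, 2 fell. The most abundant, Cluster-71316.187662, had 26.05, 21.7 and 26.7 CPM in salt roots, against 26.1, 25.1 and 26.2 CPM in control roots and was not called (log2 fold change −0.06, SE 0.10, edgeR adjusted p = 0.66), though with scaling on flowering plant matches it was higher in salt roots (log2 fold change 0.43, adjusted p = 0.0099). Cluster-71316.187663, which shares its NR match with that cluster and is named here after its values were seen, had 0, 4.08 and 0 CPM in salt roots, against 14.4, 20.6 and 13.9 CPM in control roots and was called lower (log2 fold change −3.52, SE 1.23, edgeR adjusted p = 0.049), a call lost without any library other than salt replicate 2. The pair summed to 26.2 ± 0.475 CPM in salt roots and 42.1 ± 3.18 CPM in control roots (SD, n = 3 each; log2 fold change −0.69, edgeR adjusted p = 9.9e-05), so the salt libraries lay below the control libraries for the sum and not for the more abundant cluster alone.

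PRE3, a small helix-loop-helix protein without a DNA-binding stretch that promotes growth, went up. Its 6 clusters share 1 NR match and summed to 4.95, 4.66 and 4.29 CPM in salt roots, against 1.23, 1.34 and 1.23 CPM in control roots, 3.63-fold higher (log2 fold change 1.86, SE 0.23, edgeR adjusted p = 1.7e-06). Of 2 tested clusters, 1 rose: Cluster-71316.1659 had 4.25, 1.62 and 2.10 CPM in salt roots, against 0.235, 0.497 and 0.0587 CPM in control roots (log2 fold change 3.27, SE 0.73, edgeR adjusted p = 0.0096). The spread of the summed level between salt libraries was small beside that of the single cluster. PRE6, of the same kind, had 1 cluster at 1.40 ± 0.335 CPM in salt roots and 1.32 ± 0.165 CPM in control roots (SD, n = 3 each) and was not called (log2 fold change 0.08, SE 0.33, edgeR adjusted p = 0.83). BEE 1, a brassinosteroid-induced factor, had 1 cluster at 1.50 ± 0.356 CPM in salt roots and 1.37 ± 0.209 CPM in control roots (SD, n = 3 each) and was not called (log2 fold change 0.12, SE 0.32, edgeR adjusted p = 0.73). BPE (BIGPETAL), known from petal size, had 2 clusters, 1 of them tested, that summed to 3.76 ± 0.368 CPM in salt roots and 4.88 ± 0.504 CPM in control roots (SD, n = 3 each) and were not called (log2 fold change −0.37, SE 0.18, edgeR adjusted p = 0.073). Salt and control libraries overlapped for PRE6 and BEE 1 and not for BPE, which missed the threshold. ILI3 and ILI6, named in rice for leaf inclination, had 3 clusters with summed means of 0.188 and 0.283 CPM in salt roots, and 0.122 and 0.301 CPM in control roots, too low to test.

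Names of the light group (PIF1, PIF3, SPATULA and UNE10) covered 31 clusters, of which 10 were tested, 1 rose and 2 fell (10% and 20%). The shares were 23.8% and 29.6% of all tested clusters, and 12.2% and 35.9% of those with a flowering plant match. PIF1, which represses seed germination and greening in the dark, had 11 clusters that summed to 4.18, 4.34 and 5.26 CPM in salt roots, against 7.40, 7.65 and 9.16 CPM in control roots (log2 fold change −0.82, SE 0.16, edgeR adjusted p = 2.4e-04). Salt libraries were all below control libraries, and 1 of 4 tested clusters was called lower, with an adjusted p of 0.056 without control replicate 1. Its most abundant cluster, Cluster-71316.277312, had 1.49, 1.68 and 0.890 CPM in salt roots, against 1.88, 1.79 and 2.00 CPM in control roots and was not called (log2 fold change −0.47, SE 0.34, edgeR adjusted p = 0.29). PIF3, which acts in photomorphogenesis, had 8 clusters that summed to 3.54, 2.91 and 3.40 CPM in salt roots, against 6.99, 6.21 and 5.69 CPM in control roots (log2 fold change −0.94, SE 0.18, edgeR adjusted p = 1.5e-04). Neither of its 2 tested clusters was called alone, and Cluster-71316.46215 had 0.495, 2.40 and 1.70 CPM in salt roots, against 3.17, 4.52 and 2.35 CPM in control roots (log2 fold change −1.12, SE 0.57, edgeR adjusted p = 0.14). The sums therefore separated the groups where single clusters, at few CPM each, overlapped or missed the threshold. The PIF1 call did not pass with scaling on flowering plant matches (log2 fold change −0.32, adjusted p = 0.089), while that of PIF3 did.

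SPATULA, a relative of the PIFs known from carpels and from restrained organ growth, had 10 clusters, 3 of them tested. Cluster-71316.45388 had 11.3, 11.9 and 14.7 CPM in salt roots, against 7.64, 7.31 and 6.51 CPM in control roots and rose (log2 fold change 0.82, SE 0.15, edgeR adjusted p = 0.0045). Another cluster, Cluster-71316.230469, named after its values were seen, had 0.283, 0.194 and 0.243 CPM in salt roots, against 1.88, 2.09 and 2.17 CPM in control roots and fell (log2 fold change −3.06, SE 0.38, edgeR adjusted p = 0.0011). The name held 1 cluster in each direction, both without overlap. Its sum of 14.9 ± 2.17 CPM in salt roots and 11.4 ± 1.16 CPM in control roots (SD, n = 3 each) followed the more abundant cluster (log2 fold change 0.38, SE 0.13, edgeR adjusted p = 0.012), and that call was lost without salt replicate 2 (log2 fold change 0.30), salt replicate 3 (0.21) or control replicate 3 (0.31), and with no composition factor (0.27). UNE10, a further relative of the PIFs, had 2 clusters, 1 of them tested, that summed to 1.02 ± 0.293 CPM in salt roots and 0.896 ± 0.217 CPM in control roots (SD, n = 3 each) and were not called (log2 fold change 0.16, SE 0.39, edgeR adjusted p = 0.71).

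Other genes of light signalling were counted from a list of name patterns, which matched clusters named HY5, DELLA, BES1/BZR1 homolog, or FAR1 and its relatives (42 of them FAR1-RELATED SEQUENCE 5), and none named phytochrome, cryptochrome or COP1. Of 131 clusters 68 were tested, 1 rose (1.47%) and 30 fell (44.1%), beside 23.8% and 29.6% of all tested clusters and 12.2% and 35.9% of those with a flowering plant match, with a median log2 fold change of −0.86 against −0.38 over all tested clusters. DELLA proteins, which bind PIFs and block them in Arabidopsis, were mostly among those that fell: 4 of 4 tested RGL2 clusters and 7 of 9 tested GAI1 clusters fell, and 1 GAI1 cluster was the single riser. Scaling on flowering plant matches left 3 of 4 RGL2 clusters and 3 of 9 GAI1 clusters lower, and 1 GAI1 cluster higher. The 4 tested clusters of HY5, which competes with PIFs for DNA sites, had a median log2 fold change of 1.38 and none was called. With scaling on flowering plant matches, 2 of 3 tested HY5 clusters were called higher. With scaling on flowering plant matches the list gave 5 higher and 13 lower of 64, beside 33.5% and 16.5% of all clusters.

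In the cold and stomata group, ICE1, which switches on cold-response genes of the DREB1 (CBF) family in Arabidopsis, had 2 clusters, both tested. They summed to 4.60, 5.31 and 3.56 CPM in salt roots, against 6.23, 6.21 and 5.75 CPM in control roots, and were called lower (log2 fold change −0.42, SE 0.17, edgeR adjusted p = 0.037). That call was kept in 6 of 14 alternative runs, which include those with 1 library left out. Among other runs, it was lost without salt replicate 3 (log2 fold change −0.35) and without control replicate 1 (−0.41), 2 (−0.41) or 3 (−0.46). It was also lost with DESeq2 in place of edgeR (−0.43), and the value was 0.07 with scaling on flowering plant matches. Cluster-71316.13235, the more abundant, had 3.61, 3.88 and 2.67 CPM in salt roots, against 4.17, 3.73 and 3.70 CPM in control roots and was not called (log2 fold change −0.19, SE 0.23, edgeR adjusted p = 0.52). Salt and control libraries overlapped at that cluster. The other, Cluster-69662.0, has an ICE1 protein of a wild chrysanthemum as its NR match and is named after its values were seen. It had 0.991, 1.42 and 0.890 CPM in salt roots, against 2.06, 2.48 and 2.05 CPM in control roots, without overlap, and was called lower (log2 fold change −0.99, SE 0.33, edgeR adjusted p = 0.04), a call lost without any library other than salt replicate 2. SCREAM2, the partner of ICE1 in cold and stomata, had 1 cluster at 0.0903 ± 0.0785 CPM in salt roots and 0.190 ± 0.141 CPM in control roots (SD, n = 3 each), and MUTE, a stomatal factor of the leaf, had 1 at 0.498 ± 0.427 CPM in salt roots and 0.242 ± 0.0478 CPM in control roots (SD, n = 3 each), both too low to test. Of 39 clusters of ICE1 partners and targets 31 were tested, 7 rose and 7 fell (22.6% each), with a median log2 fold change of 0.10. The shares were 23.8% and 29.6% of all tested clusters, and 12.2% and 35.9% of those with a flowering plant match. The DREB1D clusters, of which 6 of 12 tested rose and 1 fell, were most of those that rose, while 5 of 9 tested clusters of calmodulin-binding transcription activators fell. With scaling on flowering plant matches the counts were 16 higher and 5 lower of 31, beside 33.5% and 16.5% of all clusters.

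EGL1, which drives anthocyanin synthesis and the spacing of hairs in the Arabidopsis epidermis, had 1 cluster, Cluster-71316.84690, with 0.212, 0.259 and 0.243 CPM in salt roots, against 2.47, 2.34 and 2.29 CPM in control roots. All salt libraries lay below all control libraries, 9.64-fold lower (log2 fold change −3.27, SE 0.35, edgeR adjusted p = 6.4e-04 among clusters). Tested among protein names, the adjusted p was 1.5e-06. Protein A, a related pigment name, had 1 cluster at 0.229 ± 0.208 CPM in salt roots and 0.304 ± 0.199 CPM in control roots (SD, n = 3 each), and HEC1, a factor of the carpel, had 1 at 0.263 ± 0.105 CPM in salt roots and 0.292 ± 0.0566 CPM in control roots (SD, n = 3 each), both too low to test. A further 3 clusters carry a match without a bHLH name: 2 to a pentatricopeptide repeat protein, too low to test, and 1 to fructokinase-6. The fructokinase-6 cluster had 2 counts over the salt libraries and a control over salt ratio of 16.6 (4.34 to 142), and it was called lower (edgeR adjusted p = 0.0044).

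Beside the named factors, the 186 bHLH clusters with a numbered name had 102 tested, 14 higher (13.7%) and 21 lower (20.6%), with a median log2 fold change of −0.37. The shares were 23.8% and 29.6% of all tested clusters, and 12.2% and 35.9% of those with a flowering plant match. Of 7 MYC clusters 4 were tested, 2 higher and 2 lower. The difference between these sets and the named factors was not tested. The authors' deposited table marks 9 of the 136 as up and 22 as down (13.5% and 10.2% of all its clusters are so marked), and all 9 and 21 of the 22 were called in the same direction here. On FPKM, limma tested 61 of the clusters and called 9 higher and 28 lower, against 22.8% and 28.4% of 184306 clusters, with a median of −0.65 on the log2(FPKM + 1) scale.

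Scaling moved these values together, as the plot of changes per name under 4 scalings shows. Taking composition factors from flowering plant matches alone raised the log2 fold change of the median cluster by 0.55, where DESeq2 size factors raised it by 0.31 and column sums with TMM by 0.23, and leaving out the composition factor lowered it by 0.13. The named factors then had 15 clusters higher and 20 lower of 63, against 33.5% and 16.5% of all clusters, and a median of −0.11. Among 19 bHLH names, 5 were then higher and 7 lower, against 31.8% and 37.6% of all names. The share of higher clusters among those called was 42.9%, against 30.2% under the scaling reported above. The share of counts in clusters matched to other organisms was larger in salt roots, as given above. AIB, NAI1 and PRE3 rose, and FIT, UNE12, BIM1, BIM2, ORG2, EGL1 and PIF3 fell, under each of the 4 scalings plotted. As a share of the counts with a flowering plant match, the 136 clusters held 1.84% ± 0.022 in salt roots and 1.71% ± 0.011 in control roots (SD, n = 3 each).

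**Figure D5:**
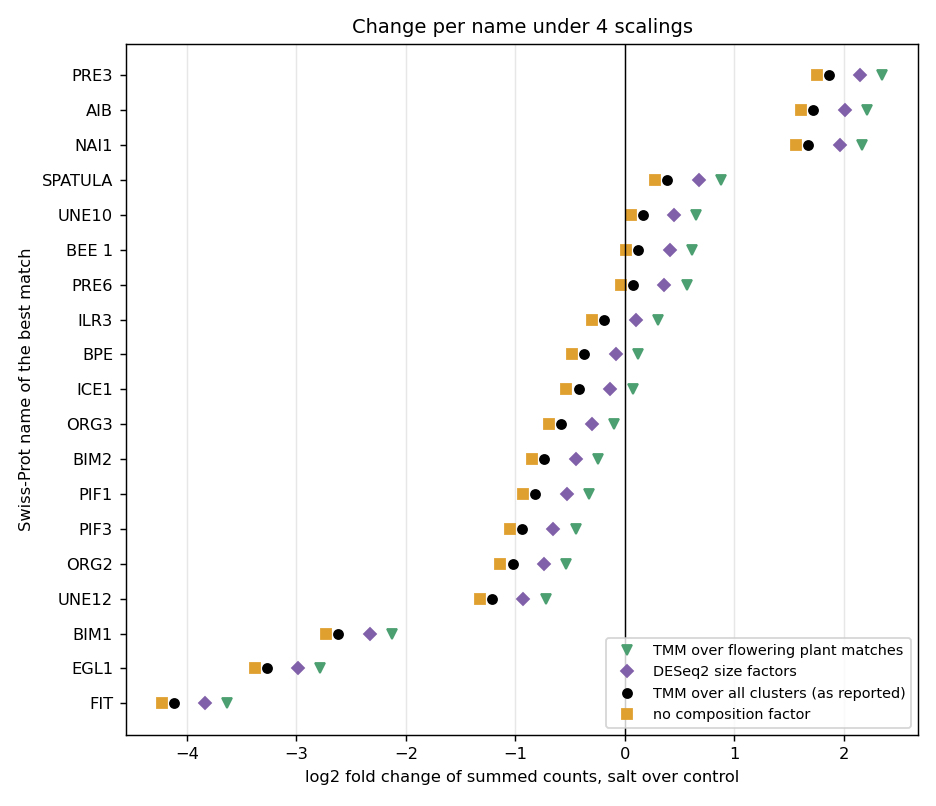
Log2 fold change of summed counts per bHLH name (salt over control) under 4 ways of scaling the libraries, 1 symbol per scaling. The 4 symbols of a name are shifted together, so names near 0 (SPATULA to ORG3) cross or approach the line at 0, while FIT stays below −3 and AIB above 1.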

How the data were processed

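RNA from jinba roots was sequenced in 3 salt and 3 control libraries. Bowtie2 2.0.6 and TopHat2 2.0.12 appear in the submitters' processing notes, without a role. The sources used here give no assembler or counting tool. The authors deposited estimated counts per cluster, of which 65.3% of the nonzero values are not whole, together with FPKM, cluster length, database match scores, log2 fold changes and q-values per the file headers, for 10744 regulators, and FPKM alone for 469059 clusters. The authors' match scores, log2 values and q-values entered no test.

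Each library's depth was recovered by fitting a line through counts over FPKM against length, since the regulator table holds 4.04% to 4.76% of the fragments. Counts were rounded and tested in R 4.3.3 with edgeR 4.0.16 (quasi-likelihood F-test, filterByExpr, Benjamini-Hochberg over all 5284 tested clusters, called under 0.05), with TMM factors from the FPKM of all clusters. The same test was run on counts summed per protein name. It also gave the values of ORG3, PRE6 and BEE 1, which have 1 cluster each. limma 3.58.1 was run on log2(FPKM + 1) for clusters reaching an FPKM of 1 in 3 or more libraries, and DESeq2 1.42.0 was an alternative. SEs are approximate, from the F statistic. The edgeR script was tested on simulated data. Totals limit precision: at this depth 1 count is less than 0.1 CPM, and intervals and floors cover counting error only.

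The clusters and gene lists were chosen with earlier results of these data known, so their shares of calls were not tested against the background. The permutation test of the summed level was the only test of the clusters as a set, and it carries the same limit. Clusters named are the most abundant tested cluster of each name with at least 2 tested clusters or a mean of at least 10 CPM, the 5 largest rises and 5 largest falls among called clusters without overlap, and the 3 lowest adjusted p in each direction, and others are said to be chosen after their values were seen. ORG2 and ORG3 were placed with iron, ILI3 and ILI6 with growth, and AIB and NAI1 on their own after the names were seen. Replicates are labelled biological, so p-values measure the spread between these samples.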

Additional observations from a re-analysis of the deposited data

How the results depend on the processing

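Across the edgeR and DESeq2 runs with other scalings, filters, a replicate block or 1 library left out, the named bHLH factors had 10 to 15 clusters higher and 20 to 31 lower, and no cluster called in 1 direction was called in the other. Names called lower numbered 7 instead of 11 with composition factors from flowering plant matches. The median log2 fold change was −0.40 under size factors from DESeq2, −0.46 when column sums were scaled by TMM, −0.81 with no composition factor and −0.11 with factors from flowering plant matches, and −0.70 to −0.52 when 1 library was left out. The summed level's log2 ratio turned positive with DESeq2 size factors (0.16), column sums (0.087) and flowering plant factors (0.36), and ran from −0.18 to −0.10 with 1 library left out. In that order of scalings, the ICE1 Cluster-71316.13235 turned to 0.10, 0.032 and 0.30, the BIM2 Cluster-71316.187662 to 0.23, 0.16 and 0.43, and the ILR3 sum to 0.10, 0.031 and 0.31. With flowering plant factors the PIF1 Cluster-71316.277312 turned to 0.017, the ICE1 sum to 0.071 and the BPE sum to 0.12. The PRE6 sum was −0.034 with no composition factor, and with 1 library left out it ran from −0.11 to 0.17. The BEE 1 sum ran from −0.10 to 0.25 and the UNE10 sum from −0.10 to 0.30 in the same way, neither called. The cause of these turns was not tested beyond the scaling itself. Whether replicate numbers pair the samples was not settled. Same-numbered libraries correlated at 0.0367, 0.0294 and 0.0144 in their deviations, each the best for its salt library, and other pairs at −0.0375 to 0.0135. Values this small cannot decide it. With a replicate block 10 clusters were higher and 24 lower, and 4 names higher and 11 lower. Without any 1 library 10 to 12 clusters were higher and 25 to 31 lower. The count filter limited the test to 67 of 136 clusters. It asks for enough counts in as many libraries as a group holds, and not for a mean level. The means therefore overlap: the untested clusters averaged up to 0.684 CPM and the lowest tested one 0.423 CPM.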

Other observations

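Within the authors' bHLH family, 97 clusters had no flowering plant match in Swiss-Prot. Of these, 34 were tested, 26 were higher in salt roots and 0 were lower, with a median log2 fold change of 3.08, by the edgeR test of the report. Over all 1455 tested regulators without a flowering plant match, 54.2% were higher and 13.1% lower with a median of 1.63, so over all families more than 50% of such tested clusters were higher in salt roots. The summed level of the 97 was 212 ± 59.7 CPM in salt roots and 24.95 ± 2.97 CPM in control roots (SD, n = 3 each). The lowest salt library had 144 CPM and the highest 254 CPM. No gene name is given to these clusters here.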
